A study of Mus musculus with 68 samples.

Results

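Kcna5, Kcna6 and Kcna1 encode pore subunits of the Kv1 (Shaker-type) voltage-gated potassium channels. They were picked by symbol, and are 3 of the 21948 genes in a table of 68 RNA-seq libraries from mouse pharyngeal arches. The members were chosen on earlier results of these data: Kcna5 for its difference between genotype labels at E9.5 and E10.0, and Kcna1 for its difference at E10.5. Those differences are therefore given as descriptions with no test, and so is any comparison that uses the same libraries of the same gene. Kcna6 was tested throughout, and the other 2 genes at the other stages, except where a group decided whether a gene was analysed at all.

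Pharyngeal arches are paired bulges on the sides of the embryo's throat. The first arch (PA1) forms the jaws, and the second (PA2) forms the stapes of the middle ear, part of the hyoid and the muscles of the face. Hoxa2 is the homeobox transcription factor that gives PA2 its identity. Both arches were dissected by hand from single embryos of a CBA/Ca/J x C57BL/10 background at embryonic day E9.0, E9.5, E10.0 or E10.5. The embryos were wildtype or carried the genotype label Hoxa2-/-, with no other allele, agent or treatment named for either. The 16 groups of arch, label and stage held 3 to 5 libraries each. In all there were 35 embryos, and both arches are present for 33. A whole arch mixes mesenchyme, epithelium, vessels, nerve and blood, so fewer cells of a type and less RNA per cell cannot be told apart in any value below.

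Kv1 subunits assemble as tetramers into a channel that opens when the membrane depolarises and lets potassium out of the cell. Kcna5 (Kv1.5) is known from atrial heart muscle and vascular smooth muscle, whereas Kcna1 (Kv1.1) and Kcna6 (Kv1.6) are best known from neurons and their axons. Beta subunits such as Kcnab1 and Kcnab2 bind the cytoplasmic side of Kv1 channels, and Cntnap2 and the Lgi and Adam22 proteins belong to their axonal and synaptic surroundings.

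The 3 genes lie side by side on chromosome 6 of GRCm38 (mm10), all on the minus strand, in the GENCODE M21 annotation. Kcna5 spans chr6:126532551-126535412, Kcna1 spans chr6:126640397-126646384 and Kcna6 spans chr6:126708329-126740674. The coding sequence of each lies within 1 exon, and its length is 1806 bases for Kcna5, 1485 for Kcna1 and 1587 for Kcna6. Translated from the GENCODE transcripts, 70.8% of aligned residues were identical between Kcna1 and Kcna5, 71.5% between Kcna1 and Kcna6, and 70.9% between Kcna5 and Kcna6. The stretches below hold the codons of the selectivity filter, the part of the pore that lets potassium pass, at bases 37 to 51. They are shown because they carry the function that the 3 genes share, and capitals mark bases shared by all 3 genes (53 of 75).
Kcna5, chr6:126533721-126533795, minus strand: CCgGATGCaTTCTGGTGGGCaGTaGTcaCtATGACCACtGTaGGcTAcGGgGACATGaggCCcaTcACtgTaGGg
Kcna1, chr6:126642204-126642278, minus strand: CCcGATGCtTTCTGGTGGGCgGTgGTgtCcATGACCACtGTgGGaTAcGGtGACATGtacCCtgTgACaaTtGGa
Kcna6, chr6:126738623-126738697, minus strand: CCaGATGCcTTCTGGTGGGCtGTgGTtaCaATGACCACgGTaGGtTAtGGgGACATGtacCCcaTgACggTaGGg
The other 22 bases of each stretch differ in at least 1 of the genes.

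The longest identical run decides whether a read can be placed on 1 member. Between Kcna1 and the other 2 transcripts it was 26 bases (with Kcna5) and 31 bases (with Kcna6). Kcna5 and Kcna6 share 1 longer coding run of 91 bases, at chr6:126533950-126534040 in Kcna5 and chr6:126738852-126738942 in Kcna6, printed here because a short read inside it fits both genes:
Kcna5 and Kcna6, minus strand: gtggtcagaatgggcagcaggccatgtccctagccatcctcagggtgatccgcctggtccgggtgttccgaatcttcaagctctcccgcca
Stretches of 50 bases that occur in both transcripts were 2.81% of those in Kcna5 and 1.37% of those in Kcna6. The antisense gene Gm26673 (chr6:126718684-126741601) overlaps Kcna6 and was not analysed here. Whether the counting used strand is not given in the sources used here, so Kcna6 values may hold antisense reads.

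Values are the deposited CPM (reads scaled to library size), from 8912251 to 20619153 recovered reads per library, and 3 reads are worth 0.14 to 0.328 CPM. Reads were amplified without molecular identifiers, so they are not independent molecules. Differences are on the log2(CPM + 1) scale with their standard error, which understates changes of low genes. Adjusted p-values come from limma over 18428 genes (Benjamini-Hochberg, threshold 0.05). Replicates are separate embryos. Hoxa2 itself went against its label: it was 22.3 to 58.3 CPM on average in wildtype PA2 and 28.7 to 132 CPM in PA2 labelled Hoxa2-/-, with under 1 CPM in every PA1 library. Which part of the gene the allele lacks is not given in the sources used here, so a gene-level count does not check the label. Libraries also fell into 2 sets by Ski and Irf2bp2, 2 transcripts picked after their values were seen. Ski was 26.3 to 108 CPM in the 24 wildtype libraries of all stages but E10.0, 9.52 to 15.5 CPM in the 10 wildtype libraries of E10.0 and 9.28 to 22.8 CPM in all 34 labelled libraries. The label and this division cannot be told apart except at E10.0, where both labels lie on the same side of it. Wildtype steps into or out of E10.0 cross the division, so stage and division cannot be told apart in them. Yolk sac transcripts were over 10 times the median library in 6 libraries: labelled PA2 replicate 3 of E9.0 had 278 CPM of 8 such transcripts, followed by labelled PA2 replicate 4 of E10.0 (225 CPM). The other 4 were wildtype PA1 replicates 3 and 4 of E9.0, wildtype PA2 replicate 3 of E10.0 and labelled PA1 replicate 4 of E10.0, at 31.8 to 90.1 CPM.

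Kcna5 was a PA2 transcript in wildtype embryos, with a peak at E9.5 and E10.0. From the first stage to the last, wildtype PA2 held 8.97 ± 2.47 CPM (SD, n = 4), 27.3 ± 3.72 (n = 4), 29.7 ± 8.54 (n = 5) and 8.87 ± 0.502 (n = 3). Wildtype PA1 stayed between 2.54 and 3.98 CPM on average at all 4 stages. Labelled PA2 had no such peak: its means were 4.35 ± 0.575 CPM (n = 4), 6.6 ± 0.444 (n = 5), 8.9 ± 1.35 (n = 5) and 10.4 ± 1.83 (n = 3).

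**Figure D1:**
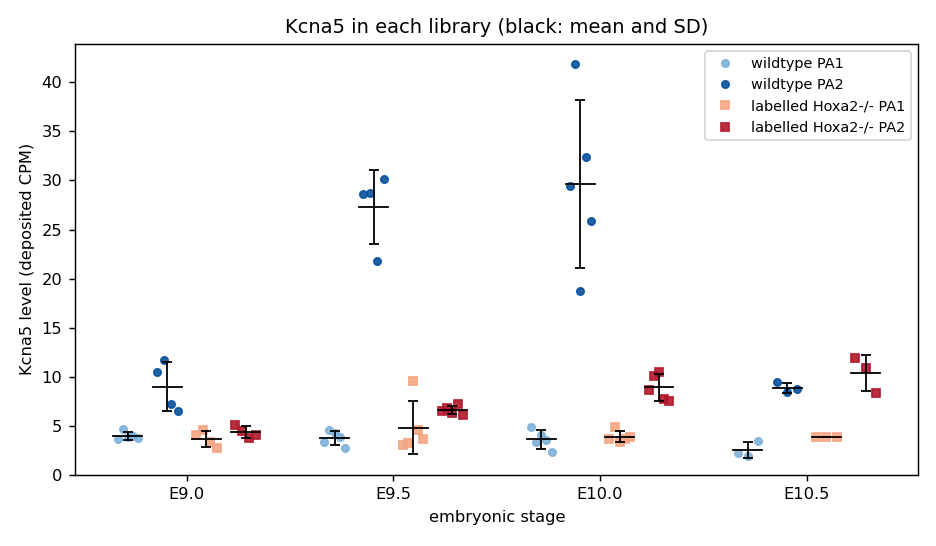
Kcna5 level in deposited CPM (vertical axis) in each of the 68 libraries by stage (horizontal axis). Points are libraries, coloured by arch and label, and black bars are the mean and SD of each group. Wildtype PA2 at E9.5 and E10.0 lies between 18.7 and 41.9 CPM, above every other library.

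The 4 wildtype PA2 libraries of E9.5 read 28.6, 28.7, 21.8 and 30.1 CPM. The 5 labelled PA2 libraries of that stage read 6.55, 6.78, 6.31, 7.26 and 6.11 CPM. The groups were far apart, and the wildtype mean was 4.13 times the labelled mean, a difference of -1.89 ± 0.18 (label minus wildtype). This is a value on which Kcna5 was chosen, in a comparison where 4.48% of all genes passed.

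At E10.0 wildtype PA2 read 29.4, 41.9, 18.7, 32.4 and 25.9 CPM, and labelled PA2 read 8.64, 10.1, 10.498, 7.72 and 7.53 CPM. Again no library overlapped, and the wildtype mean was 3.33 times the labelled one (-1.60 ± 0.17). Kcna5 was chosen on this value too, and only 0.0814% of genes passed there. The lowest wildtype library, replicate 3, and labelled replicate 4 are among those that hold yolk sac transcripts. Without the yolk sac libraries the difference was -1.70. Both labels lie on the same side of the Ski division at this stage. Kcna5 was chosen on its values at this stage and at E9.5, and the part of that division in them was not tested.

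The earliest stage gives a test that did not enter the choice. At E9.0 wildtype PA2 read 10.454, 11.7, 7.23 and 6.55 CPM and labelled PA2 read 5.11, 4.44, 3.79 and 4.06 CPM, with no overlap. Kcna5 was lower in labelled PA2 by -0.87 ± 0.19 (limma adjusted p = 0.0013), where 14% of genes passed. The wildtype mean was 2.06 times the labelled one. When the limma fit held just the compared groups the adjusted p was 0.19, and with each library left out in turn it lay between 0.00073 and 0.014. Without the yolk sac libraries the difference was -0.82 (limma adjusted p = 0.0045).

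At E10.5 the labels no longer differed detectably in PA2. Wildtype libraries read 9.42, 8.43 and 8.76 CPM and labelled libraries 11.9, 10.9 and 8.34 CPM, and these ranges overlap. The difference was 0.19 ± 0.22 (limma adjusted p = 0.66), in a comparison where 10.3% of genes passed. Wildtype PA2 had come down from its E10.0 level by this stage, while labelled PA2 means were higher at each later stage. That wildtype step crosses the Ski division, so stage and division cannot be told apart in it.

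No genotype difference of Kcna5 passed in PA1 at the stages tested. At E9.0 the wildtype libraries lay between 3.66 and 4.66 CPM and the labelled ones between 2.71 and 4.57 CPM (-0.10 ± 0.18, limma adjusted p = 0.87, 2.08% of genes passing). At E10.5 the wildtype libraries lay between 1.95 and 3.49 CPM and the labelled ones between 3.81 and 3.85 CPM. These did not overlap, yet the difference of 0.48 ± 0.22 missed the threshold (limma adjusted p = 0.29, 3.05% of genes passing). As descriptions, PA1 differences were 0.21 ± 0.17 at E9.5, where 23.6% of genes passed, and 0.09 ± 0.17 at E10.0. At E10.0 the share of genes passing in PA1 was 0%: limma and edgeR each called 0 genes, and 424 had an unadjusted p under 0.05.

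One PA1 library stood apart at E9.5. Labelled PA1 replicate 3 read 9.51 CPM, against 3.04 to 4.57 CPM in the other 4. The same library had 13.6 CPM of Kcnab1, against 1.36 to 3.72 CPM in the other 4, and its summed smooth muscle markers (Acta2, Tagln, Myh11 and Cnn1) were 203 CPM against 16 to 95.6 CPM. Endothelial markers (412 CPM against 168 to 321 CPM), epithelial markers (1265 CPM against 559 to 791 CPM) and skeletal muscle progenitor markers (115 CPM against 67.1 to 103 CPM) were highest in it too. Its cardiac markers summed to 12.3 CPM, within the 7.63 to 66.3 CPM of the others. Their part in the Kcna5 value was not tested. Without this library the arch difference of labelled embryos at E9.5 went from 0.49 to 0.73.

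The label's effect in PA2 minus its effect in PA1 asks whether the genotype difference is particular to PA2. For Kcna5 it was -0.77 ± 0.27 at E9.0 (limma adjusted p = 0.82) and -0.28 ± 0.32 at E10.5 (limma adjusted p = 1). Neither passed, so a PA2-specific change was not shown at those stages. At E9.5 and E10.0, where Kcna5 was chosen on it, the value was -2.09 ± 0.25 and -1.68 ± 0.25. Almost no gene passes this test. At E9.0 the share was 0%, with 0 genes called by limma and 0 by edgeR, and 1083 genes had an unadjusted p under 0.05. At the 3 later stages the shares were 0.0109%, 0.0163% and 0.038%.

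Between the arches of wildtype embryos Kcna5 was higher in PA2 at both stages tested. The difference was 0.97 ± 0.18 at E9.0 (limma adjusted p = 7.9e-05, 18.7% of genes passing) and 1.50 ± 0.22 at E10.5 (limma adjusted p = 3.1e-06, 1.52% of genes passing). No PA1 library reached a PA2 library at either stage. As descriptions, the differences were 2.58 ± 0.18 at E9.5 and 2.70 ± 0.17 at E10.0, where 26.3% and 5.94% of genes passed. The PA2 mean was 2.26, 7.28, 8.15 and 3.49 times the PA1 mean from E9.0 to E10.5.

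Labelled embryos had a smaller gap that passed at the last stage. At E9.0 it was 0.20 ± 0.19 (limma adjusted p = 0.48, 24.6% of genes passing). At E10.5 it was 1.22 ± 0.22 (limma adjusted p = 3e-04, 1.37% of genes passing), from PA1 libraries of 3.81 to 3.85 CPM and PA2 libraries of 8.34 to 11.9 CPM. As descriptions it was 0.49 ± 0.17 at E9.5 and 1.02 ± 0.17 at E10.0, where 9.58% and 4.23% of genes passed. A PA2 level above PA1 was thus present at E10.5 under both labels.

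Paired within embryos, Kcna5 was higher in PA2 in 16 of 16 wildtype embryos and in 15 of 17 labelled embryos. These tallies are descriptions, since they include E9.5 and E10.0, the stages on which Kcna5 was chosen. At E9.0 it was higher in 4 of 4 wildtype and 3 of 4 labelled embryos, and at E10.5 in all 3 of each. The wildtype within-embryo difference ran from 0.66 to 1.30 at the first stage, had a median of 2.59 and a highest value of 3.07 at E9.5, then ran from 1.95 to 3.29 and from 1.12 to 1.71. In labelled embryos it ran from -0.03 to 0.45, -0.52 to 0.90, 0.81 to 1.40 and 0.96 to 1.41. The 2 sets overlapped only at E10.5, and the lowest E9.5 value belongs to the embryo of the high PA1 library.

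**Figure D2:**
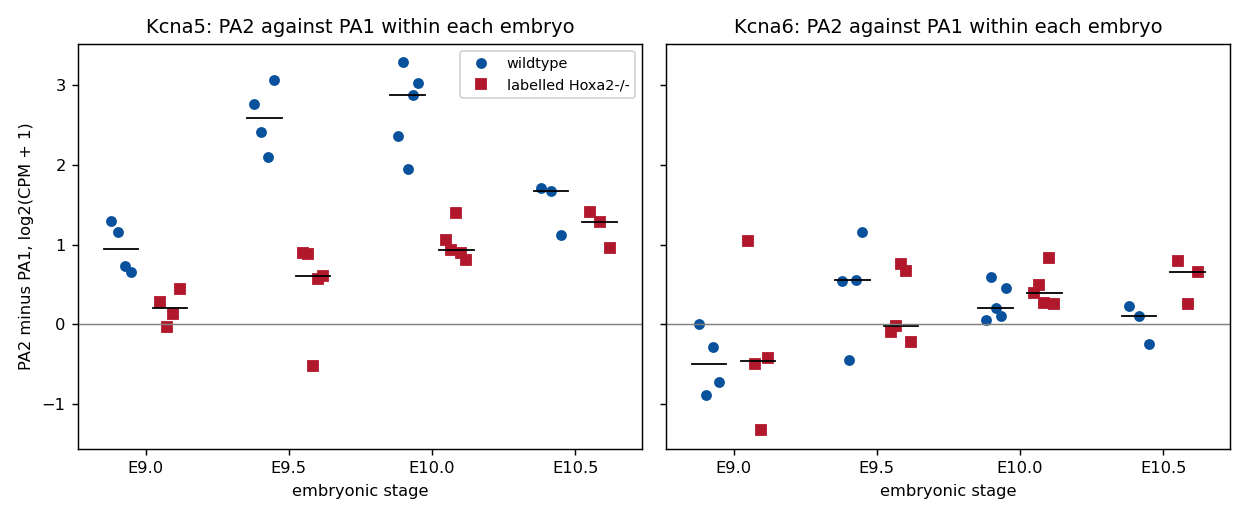
Difference between PA2 and PA1 of the same embryo in log2(CPM + 1) (vertical axis) for Kcna5 (left) and Kcna6 (right) by stage (horizontal axis). Each point is an embryo and each black line the median of its group. For Kcna5 all 16 wildtype embryos lie above 0, whereas 10 of 16 do for Kcna6. They include the embryos of E9.5 and E10.0, the stages on which Kcna5 was chosen.

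From E9.0 to E10.5 Kcna5 came back to its starting level in wildtype PA2, and rose in labelled PA2. The change was 0.02 ± 0.21 in wildtype PA2 (limma adjusted p = 0.96, 36.9% of genes passing) and 1.08 ± 0.21 in labelled PA2 (limma adjusted p = 4.8e-05, 30.9% of genes passing). It was 0.07 ± 0.21 in labelled PA1 (limma adjusted p = 0.85, 31.2% of genes passing). In wildtype PA1 it fell by 0.51 on the log2 scale (limma adjusted p = 0.033, 42.5% of genes passing). That fall lost its call when PA1 replicate 2 of E9.0 (adjusted p = 0.07), or replicate 1 (0.13) or 2 (0.18) of E10.5, was left out, and without the yolk sac libraries (0.052). As descriptions, the step from E9.0 to E9.5 was 1.53 ± 0.19 in wildtype PA2 and 0.51 ± 0.18 in labelled PA2, where 6.68% and 16.9% of genes passed.

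Ranked by mean, the 16 groups of Kcna5 began with wildtype PA2 of E10.0 and E9.5, whose libraries overlapped each other and no other group. Labelled PA2 of E10.5, wildtype PA2 of E9.0, labelled PA2 of E10.0 and wildtype PA2 of E10.5 followed at 10.4, 8.97, 8.9 and 8.87 CPM, each overlapping its neighbour. Labelled PA2 of E9.5 came next at 6.6 CPM. The remaining 9 groups, all 8 PA1 groups and labelled PA2 of E9.0, lay between 2.54 and 4.8 CPM, and each overlapped the next in the order.

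Kcna5 is known from heart and smooth muscle, and median marker sums of both were higher in PA2 than in PA1 at E9.0 and E9.5. The ranges of the arches overlapped in wildtype embryos at both stages and in labelled embryos at E9.5. All 4 smooth muscle markers and 7 of 8 cardiac markers were in the table, and none was at 0 throughout a group. At E9.0 summed cardiac markers were 28.5 to 764 CPM in wildtype PA2 and 14.3 to 29.5 CPM in wildtype PA1. Wildtype PA2 replicate 2 of E9.0 had the lowest cardiac sum (28.5 CPM against 735 to 764 CPM) and the highest Kcna5 of its group (11.7 CPM). It differed in other ways as well, with 53866 CPM of erythroid transcripts against 2795 to 4077 CPM and 69.6 CPM of smooth muscle transcripts against 548 to 718 CPM. At E9.5 cardiac sums were 27.1 to 668 CPM in wildtype PA2 and up to 516 CPM in labelled PA2, and smooth muscle sums were 59.1 to 550 and 12.3 to 319 CPM. The wildtype library with the most cardiac and smooth muscle transcripts, replicate 3, had the lowest Kcna5 of the 4 (21.8 CPM). By E10.0 the cardiac sums were 8.85 to 50.3 and 6.26 to 38.5 CPM and the smooth muscle sums 6.12 to 108 and 4.67 to 88.9 CPM, overlapping between labels. Other libraries went the same way in markers and Kcna5. Wildtype PA2 replicate 3 of E10.0 had the lowest cardiac sum, smooth muscle sum and Kcna5 of its group (8.85, 6.12 and 18.7 CPM). Labelled PA2 replicate 3 of E9.0 was also lowest of its group in each (69.2, 114 and 3.79 CPM). Both these libraries hold yolk sac transcripts. At E10.5 wildtype cardiac sums were 3.33 to 5.22 CPM in PA2 and 2.34 to 3.59 CPM in PA1, beside the Kcna5 arch difference given above. The part of heart or smooth muscle cells in the Kcna5 values of any stage was not tested.

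Kcna6 was expressed in both arches and was higher at E10.5 than at E9.0. Its mean was highest at E10.0 in 3 of the 4 combinations of arch and label, and at E10.5 in labelled PA2. In wildtype embryos the steps into and out of E10.0 cross the Ski division. From the first stage to the last, wildtype PA1 held 3.43 ± 0.5 CPM (n = 5), 3.7 ± 1.75 (n = 5), 6.99 ± 1.77 (n = 5) and 5.98 ± 1.22 (n = 3). Wildtype PA2 held 2.33 ± 0.986 (n = 4), 5.37 ± 2.63 (n = 4), 8.69 ± 1.7 (n = 5) and 6.08 ± 0.938 (n = 3). Every library had at least 10 reads of Kcna6.

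The rise from E9.0 to E10.5 passed in all 4 combinations of arch and label, where 42.5% (wildtype PA1), 36.9% (wildtype PA2), 31.2% (labelled PA1) and 30.9% (labelled PA2) of all genes passed in either direction. In wildtype PA2 the libraries went from 3.71, 1.82, 2.32 and 1.46 CPM to 5.54, 7.16 and 5.54 CPM, a change of 1.13 ± 0.26 (limma adjusted p = 0.00052). In labelled PA2 they went from 6.31, 3.53, 0.946 and 3.23 CPM to 13.1, 9.76 and 10.8 CPM, a change of 1.58 ± 0.26 (limma adjusted p = 3.5e-06). The 2 sets of libraries did not overlap in either case. In PA1 the changes were 0.65 ± 0.25 in wildtype (limma adjusted p = 0.033) and 0.70 ± 0.26 in labelled embryos (limma adjusted p = 0.035). Those 2 calls are fragile. The wildtype one was lost without replicate 3, 4 or 5 of E9.0 or replicate 2 or 3 of E10.5 (adjusted p up to 0.12), and without the yolk sac libraries (0.58, 0.064). The labelled one was lost without replicate 1 or 3 of E9.0 or any E10.5 replicate (adjusted p up to 0.15).

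Part of the PA2 rise fell between E9.0 and E9.5: 0.90 ± 0.24 in wildtype (limma adjusted p = 0.016) and 1.00 ± 0.23 in labelled embryos (limma adjusted p = 0.0023). The wildtype call was lost without PA2 replicate 5 of E9.0 (adjusted p = 0.07) or replicate 5 of E9.5 (0.17), and the labelled call without PA2 replicate 3 of E9.0 (0.64, adjusted p = 0.079), the library with the most yolk sac transcripts. These comparisons had 6.68% and 16.9% of genes passing. Both were lost when the fit held just the compared groups (limma adjusted p = 0.1 and 0.23).

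No arch comparison of Kcna6 passed with all libraries in the fit. That of labelled embryos at E10.0 passed when the fit held just the compared groups. That of wildtype embryos at E9.5 passed with a single library left out (lowest limma adjusted p = 0.036). Adjusted p-values (limma) ran from 0.16, in wildtype embryos at E9.5, to 1, at E10.5, and the differences from -0.45 ± 0.23 to 0.58 ± 0.28. From E9.0 to E10.5, 18.7%, 26.3%, 5.94% and 1.52% of all genes passed in wildtype embryos. In labelled embryos 24.6%, 9.58%, 4.23% and 1.37% did. Within embryos Kcna6 was higher in PA2 in 10 of 16 wildtype and 11 of 17 labelled embryos. At E9.0 it was higher in PA2 in 0 of 4 wildtype and 1 of 4 labelled embryos, and at E10.0 in all 5 of each.

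Between labels, Kcna6 passed in 1 of 8 comparisons, in PA1 at E9.5. Wildtype libraries read 2.24, 6.56, 2.32, 3.77 and 3.6 CPM and labelled ones 7.32, 5.14, 4.65, 5.81 and 7.27 CPM. Only the wildtype library at 6.56 CPM reached into the labelled range. The difference was 0.64 ± 0.22 (limma adjusted p = 0.027), in the comparison where 23.6% of genes passed and where the Ski division coincides with the label. It was lost without wildtype replicate 1 or 3 (adjusted p = 0.11 each) or labelled replicate 1 or 5 (0.069 each), and when the fit held just the compared groups (0.088). At E10.0, where both labels share a side of that division, the PA1 difference was 0.12 ± 0.22 (limma adjusted p = 1).

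In PA2 the label difference of Kcna6 was positive at all 4 stages and passed at none with all libraries in the fit. It was 0.33 ± 0.24, 0.43 ± 0.23, 0.29 ± 0.22 and 0.79 ± 0.28 from E9.0 to E10.5 (limma adjusted p = 0.39, 0.32, 0.76 and 0.062). In these comparisons 14%, 4.48%, 0.0814% and 10.3% of all genes passed. The E9.0 value depends on single labelled libraries. Replicate 3, the library with the most yolk sac transcripts, had 0.946 CPM of Kcna6 against 3.23 to 6.31 CPM in the other 3. Without it the difference was 0.69 (limma adjusted p = 0.035). Without replicate 1, the highest at 6.31 CPM, the difference was 0.05. At E10.5 the 3 labelled libraries (9.76 to 13.1 CPM) all lay above the 3 wildtype ones (5.54 to 7.16 CPM). The Ski division coincides with the label there. Endothelial and skeletal muscle progenitor marker sums of these libraries did not overlap between labels either, and their part was not tested. The Kcna6 difference passed with a pseudocount of 5 (limma adjusted p = 0.019) and when the fit held just the compared groups (0.014), and without the yolk sac libraries of the earlier stages (0.033). Its excess over PA1 was 0.55 ± 0.4 and did not pass (limma adjusted p = 1).

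Kcna1 was near the limit of detection. It ran from 0 to 1.76 CPM, or 0 to 22 reads, with 4 libraries at 0 and 27 at 3 reads or fewer. It passed the expression filter with exactly the 3 libraries required: wildtype PA2 of E9.5 replicate 3 (1.07 CPM) and labelled PA2 of E10.5 replicates 2 and 3 (1.76 and 1.33 CPM). Fits of such counts depend on the pseudocount, so its reads are given beside its levels. Comparisons that use wildtype PA2 of E9.5 are descriptions with no test, since that group let the gene through the filter.

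The highest Kcna1 group was labelled PA2 of E10.5, the value for which it was chosen. Its 3 libraries held 9, 22 and 19 reads (0.686, 1.76 and 1.33 CPM). Wildtype PA2 of E10.5 held 2, 4 and 1 reads (0.103, 0.211 and 0.0554 CPM), so the groups did not overlap. The means were 1.26 ± 0.54 and 0.123 ± 0.0795 CPM (SD, n = 3 each). The fitted difference was 0.98 ± 0.15, and 1.97 with a pseudocount of 0.25, in a comparison where 10.3% of all genes passed. The Ski division coincides with the label at E10.5. PA1 of that stage held 7, 2 and 1 reads under the label and 1, 1 and 13 reads in wildtype. Summed neuronal markers, of which 10 of 12 were in the table, overlapped between these groups: they were 73.4 to 86.4 CPM in labelled PA2 and 82 to 92.7 CPM in wildtype PA2, where Neurod1 was at 0. Endothelial sums did not overlap (187 to 231 CPM in labelled PA2 and 153 to 167 CPM in wildtype PA2), nor did those of skeletal muscle progenitors (28.7 to 34.5 and 35.1 to 54.4 CPM), and the part of any of these in the Kcna1 value was not tested.

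In wildtype embryos at E9.5 the PA2 libraries also lay above those of PA1. PA2 libraries held 11, 5, 21 and 12 reads (0.414 to 1.07 CPM) and PA1 libraries 3, 3, 3, 4 and 4 reads (0.156 to 0.321 CPM), without overlap. As a description the difference was 0.43 ± 0.12, where 26.3% of genes passed, and without PA2 replicate 3 it was 0.32. Neuronal markers summed to 92.6 to 159 CPM in those PA2 libraries and 35.7 to 53.9 CPM in those of PA1, and their part in the Kcna1 difference was not tested. At E10.0 the wildtype arch difference was 0.32 ± 0.11 and missed the threshold (limma adjusted p = 0.081), but passed with the embryo as a replicate block (0.034). The labelled arch difference of E10.0 was 0.23 ± 0.11 and did not pass (limma adjusted p = 0.27). In these comparisons 5.94% (wildtype) and 4.23% (labelled) of all genes passed. PA2 exceeded PA1 in all 5 wildtype and all 5 labelled embryos of E10.0, but 4 of the 5 wildtype PA1 libraries held 3 reads or fewer.

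At E9.0 Kcna1 was scarcest in labelled PA2, with 1 read in 1 library and 0 in the other 3. A count of 0 allows up to 3 reads, or 0.14 to 0.328 CPM, for counting error only, and wildtype PA2 of that stage held 1, 3, 4 and 7 reads. The label difference was -0.23 ± 0.13 (limma adjusted p = 0.23), and the arch difference of labelled embryos was -0.25 ± 0.13 (limma adjusted p = 0.14). Both passed with edgeR, and the arch difference also with a pseudocount of 0.25. From E9.0 to E9.5 Kcna1 rose in labelled PA2 by 0.46 ± 0.12 (limma adjusted p = 0.0059, 16.9% of genes passing), a call lost when the fit held just the compared groups (limma adjusted p = 0.14). As a description the step was 0.45 ± 0.13 in wildtype PA2.

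**Figure D3:**
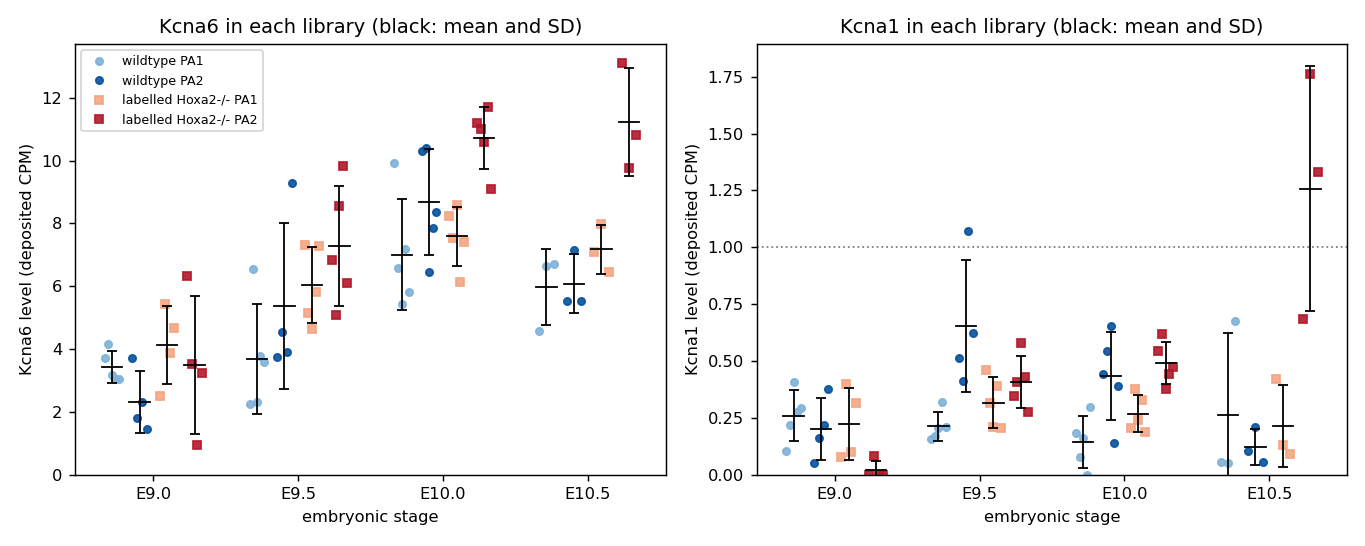
Kcna6 (left) and Kcna1 (right) in deposited CPM (vertical axes, different scales) in each library by stage (horizontal axis). Points are libraries, black bars the mean and SD, and the dotted line the filter level of 1 CPM. Mean Kcna6 is lowest at E9.0 in each arch and label, although the lowest wildtype PA1 libraries are of E9.5. Labelled PA2 of E10.5 holds the 2 Kcna1 values furthest above 1 CPM.

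Levels of different genes can be compared only per length. Divided by the summed exon length (2862 bases for Kcna5, 5945 for Kcna6 and 4780 for Kcna1), wildtype PA2 at E10.0 held 10.4 ± 2.99 CPM per kilobase of Kcna5, 1.46 ± 0.287 of Kcna6 and 0.0909 ± 0.0405 of Kcna1 (SD, n = 5). In wildtype PA1 of the same stage these were 1.27 ± 0.337, 1.18 ± 0.297 and 0.0302 ± 0.0237 CPM per kilobase. Kcna5 and Kcna6 thus lay within an SD of each other in PA1 and far apart in PA2 at that stage. At E9.0 they were apart in PA1 too, at 1.39 ± 0.139 and 0.577 ± 0.0841 CPM per kilobase (SD, n = 5).

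Of the 8 genes of the Kv1 family, 5 were in the table and all 5 passed the filter. The 2 that are not members are Kcna3 (Kv1.3), known from T lymphocytes, and Kcna2 (Kv1.2), a neuronal subunit that pairs with Kcna1. Kcna2 reached the filter level of 1 CPM in PA2 of E9.5 alone, in 2 wildtype and 4 labelled libraries, so its values there are descriptions. In wildtype embryos it was 1.27 ± 0.468 CPM (n = 4) in PA2 and 0.278 ± 0.276 CPM (n = 5) in PA1 (difference 0.83 ± 0.15). In labelled embryos it was 1.37 ± 0.593 and 0.328 ± 0.199 CPM (n = 5 each; 0.81 ± 0.14). Its label difference in PA2 at that stage was 0.05 ± 0.15, where Kcna5 had -1.89. Kcna3 passed in no arch comparison. Like Kcna6 it was higher in labelled PA1 at E9.5 (0.47 ± 0.15, limma adjusted p = 0.015), where 23.6% of all genes passed.

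The partner list held 14 genes for beta subunits and proteins bound near Kv1 channels, of which 13 were in the table and tested. In wildtype embryos at E9.5, 5 of 13 were higher in PA2 and 1 lower, where 12.7% of all genes were higher and 13.7% lower, with a list median of 0.22 against 0.01 over all genes. In labelled embryos of that stage 2 were higher and 1 lower, where 6.12% and 3.47% of all genes were, with medians of 0.30 and -0.02. The higher ones included Cntnap2, a cell adhesion protein that clusters Kv1 channels on axons (0.83 ± 0.14, limma adjusted p = 2.3e-05), and Kcnab1 (1.27 ± 0.35, limma adjusted p = 0.005). In labelled embryos of E9.5 Cntnap2 was also higher in PA2 (0.55 ± 0.14, limma adjusted p = 0.004), and Kcnab1 was at -0.26 ± 0.33 (limma adjusted p = 0.69). That labelled PA1 group includes replicate 3 at 13.6 CPM of Kcnab1, against a group median of 3.63 CPM. The Kcnab1 label effect in PA2 minus PA1 did not pass at E9.5 (-1.52 ± 0.47, limma adjusted p = 0.93). At E9.0 Kcnab1 was higher in PA2 in labelled embryos (1.27 ± 0.36, limma adjusted p = 0.0074). It did not pass in wildtype embryos of E9.0 (0.21 ± 0.35, limma adjusted p = 0.74). Cntnap2 averaged 5.79 CPM in wildtype PA2 and 2.77 CPM in wildtype PA1 at E9.5. Dlg1, a scaffold of many cell types, was the lower one. At E10.0 the only partner that passed, under both labels, was Lgi2, which was lower in PA2 (-0.72 ± 0.19 in wildtype, limma adjusted p = 0.0093, and -0.65 ± 0.19 in labelled embryos, limma adjusted p = 0.032). The E10.0 comparisons had 5.94% (wildtype) and 4.23% (labelled) of all genes passing. No partner passed in any arch comparison at E10.5, where 1.52% (wildtype) and 1.37% (labelled) of all genes passed. Between labels, Kcnab2 passed in PA1 at E9.5 and Dlg1 in PA2 at E10.5, both higher under the label. In those label comparisons 23.6% and 10.3% of all genes passed.

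Of 32 other voltage-gated potassium channel genes, 25 were in the table and 15 passed the filter. Kcnc4, Kcnh3, Kcnh8 and Kcns3 averaged at most 0.449 CPM in any PA1 group and passed the filter through PA2 libraries. Counts of genes higher in PA2 that include them are descriptions. In wildtype embryos of E9.0, 6 were higher in PA2 and 1 lower, where 10.2% and 8.53% of all genes were. It was 6 and 0 at E9.5 (12.7% and 13.7% of all genes), then 3 and 0 at E10.0 (4.51% and 1.43%). The list medians were 0.22, 0.37 and 0.15 against -0.01, 0.01 and -0.02 over all genes. In labelled embryos it was 6 and 1 at E9.0 (12.1% and 12.5% of all genes), then 3 and 0 at E9.5 (6.12% and 3.47%) and at E10.0 (3.13% and 1.1%). Their list medians were 0.34, 0.27 and 0.12 against -0.01, -0.02 and 0.00. Without the yolk sac libraries the 3 of labelled embryos at E10.0 became 0. At E10.5 none of the 15 passed by limma or edgeR under either label, where 1.52% and 1.37% of all genes passed, and 3 and 1 had an unadjusted p under 0.05. Kcnf1 passed there in labelled embryos with a pseudocount of 0.25, with the embryo block and when the fit held just the compared groups.
Kcnf1, a silent subunit that modifies Kv2 channels, was higher in PA2 under both labels from E9.0 to E10.0: at E9.0 it averaged 4.73 CPM in wildtype PA2 and 1.11 CPM in wildtype PA1 (1.45 ± 0.24, limma adjusted p = 6e-06). Kcnh2, the Erg channel of the heart, followed with 10.4 and 3.76 CPM (1.24 ± 0.23, limma adjusted p = 5.4e-05). These differences stood beside the cardiac marker sums given above, and their part was not tested. None of the 15 genes passed limma between labels in either arch at any stage, and 0 to 5 had an unadjusted p under 0.05. In these comparisons up to 23.6% of all genes passed, and 14% did in PA2 at E9.0. By edgeR there were 2 calls among the 8 comparisons, 1 of them in PA2 at E9.0.

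Auxiliary subunits numbered 11, of which 8 were in the table and tested. Kcnip2, Kcne1 and Kcnip3 were higher in PA2 at E9.0 under both labels, where 10.2% (wildtype) and 12.1% (labelled) of all genes were higher. Of these, Kcnip2 and Kcne1 are best known as partners of cardiac channels. Group means of Kcnip2 in PA1 were 0.127 to 0.316 CPM, so it passed the filter through PA2 libraries. Its arch difference is therefore a description. Kcne3, a small subunit of epithelial channels, was lower in PA2 in wildtype embryos at E9.5 (-0.88 ± 0.30, limma adjusted p = 0.025) and under both labels at E10.0. Of all genes, 13.7% were lower in wildtype PA2 at E9.5, and 1.43% (wildtype) and 1.1% (labelled) at E10.0. No auxiliary subunit passed between labels, in comparisons where up to 23.6% of all genes passed.

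Genes on either side of the cluster were compared in the same way. Ntf3, a neurotrophin and the nearest gene in the table before Kcna5, was lower in PA2 at E9.0 under both labels (-1.46 ± 0.18 in wildtype, limma adjusted p = 6.2e-09, and -1.42 ± 0.19 in labelled embryos, limma adjusted p = 5.5e-08), and higher in wildtype PA2 at E10.0 (0.52 ± 0.17, limma adjusted p = 0.045). Ntf3 passed between labels in neither arch at any stage. Of the 10 neighbours examined, 5 on each side, 9 passed the filter, and Ccnd2 was the only one that passed between labels, in PA2 (-0.36 ± 0.09, limma adjusted p = 0.0083) and in PA1 (-0.31 ± 0.08, limma adjusted p = 0.0039) at E9.5, where 4.48% and 23.6% of all genes passed. The noncoding gene Gm45869, between Kcna5 and Kcna1, never reached 1 CPM.

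The genes most like each member were the 5 with the highest Pearson correlation of log2(CPM + 1) over the 68 libraries, among 11350 genes. Libraries share embryos, stages and the Ski division, so these are descriptions. For Kcna5 they were Cxcl12, a chemokine of mesenchyme (r = 0.77), Rarres1, a retinoid-responsive gene (0.76), Hspa2, a heat shock protein (0.75), Htra3, a secreted protease (0.73), and Nkain4 (0.73). Rarres1 shares the PA2 peak at E10.0 in wildtype embryos, with 39.8 CPM in PA2 and 0.0776 CPM in PA1, but held 33.1 CPM in labelled PA2 where Kcna5 held 8.9 CPM. Cxcl12 likewise was 186 CPM in wildtype and 168 CPM in labelled PA2 of E10.0.
For Kcna6 the likeness was closer: Spin1, a histone reader (r = 0.89), Pde7a, a phosphodiesterase (0.88), and Cachd1, Mllt1 and Rhoq (0.87 each). By Spearman correlation these genes ranked 15, 6, 18, 7 and 11 in that order. For Kcna1 the likeness was loose, at 0.53 for Rai14, Rarres1 and Galr1, 0.52 for Heyl and 0.51 for Cachd1. By correlation of group means these ranked 14, 153, 58, 99 and 24, so the order depends on the measure. Rarres1 was thus near both Kcna5 and Kcna1, and Cachd1 near both Kcna6 and Kcna1. Among the members themselves r was 0.43 for Kcna1 and Kcna5, 0.42 for Kcna1 and Kcna6, and 0.27 for Kcna5 and Kcna6.

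**Figure D4:**
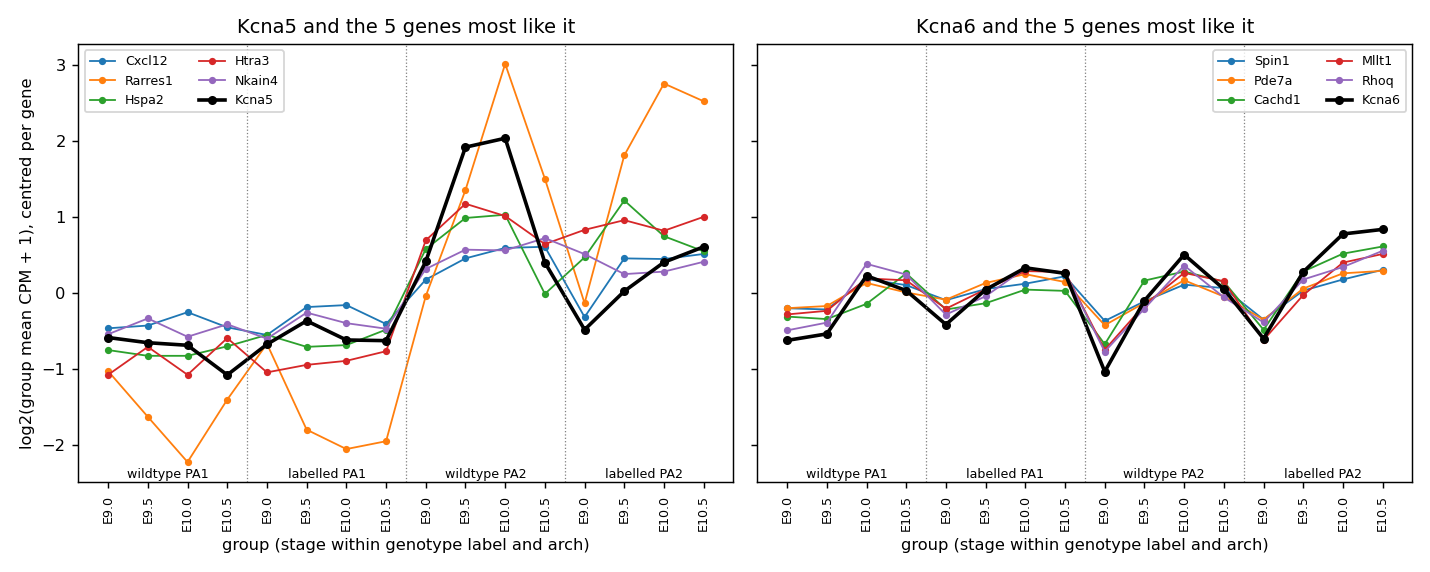
Group means as log2(mean CPM + 1), centred per gene (vertical axis), over the 16 groups (horizontal axis, stages within label and arch). The black line is Kcna5 (left) or Kcna6 (right) and the coloured lines the 5 genes most like it. In labelled PA2 Kcna5 lies below its 5 companions at E9.5, while Kcna6 and its companions move together.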

How the data were processed

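RNA of dissected PA1 and PA2 was converted to cDNA with a SMART-seq v4 low-input kit and made into Nextera XT libraries, per the labels' protocols. The submitters' processing notes name bcl2fastq 2.18, TopHat2 2.1.1, R 3.3.2 and mm10. The counting program, the annotation and the strand setting are not given in the sources used here. The authors deposited 1 table of a normalised signal in CPM-like units. Its column totals of 926298 to 1051959 differ from 1 another, and 100% of its values are whole multiples of 1 read within 0.01 reads, which is why it is recorded as a signal. In total 21921 identifiers had a symbol.

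Genes with at least 1 CPM in at least 3 libraries were kept (18428). The limma 3.58.1 test (R 4.3.3) (two-sided) took log2(CPM + 1) of all 68 libraries, estimated each group's mean and used a trended prior variance. edgeR 4.0.16 was run on the recovered whole reads as an alternative. Others changed the pseudocount (0.25, 5), the filter, the scaling, the samples fitted, the embryo block and the replicates left in. Both tests were tested on simulated data. The plan had assumed CPM and was run as written, except that comparisons of Kcna1 and Kcna2 with groups that let them pass the filter became descriptions. Arch values of Kcnip2, Kcnc4, Kcnh3, Kcnh8 and Kcns3, which passed the filter through PA2, are descriptions too.

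Per the series text, both arches came from the same embryo, so equal numbers pair arches within a label and stage. Deviations from group means correlated in 33 such pairs with a median of 0.35 (30 over 0.1), and with -0.12 in 116 other pairs. Members, gene lists and markers were chosen with earlier results of these data known. Genes named from a list are those passing with the highest mean CPM, plus neighbours of the locus, and Kcnf1, Ntf3, Ccnd2, Rarres1, Ski and Irf2bp2 values were seen before they were singled out. Candidates for likeness had a mean of at least 5 CPM in some group. Sequences come from GENCODE M21 transcripts (GRCm38), and the filter codons were found by translation. Some results on single genes of the lists are not reported here.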

Additional observations from a re-analysis of the deposited data

Results flagged for a closer look

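Among 36 combinations of member and group with 4 or 5 libraries, 4 held a library far from the others, and chance marks about 1 in 20 such groups. Kcna5 in labelled Hoxa2-/- PA1 of E9.5 read 9.51 CPM in replicate 3, against 3.04 to 4.57 CPM in the others, and Kcnab1 and the smooth muscle, endothelial and epithelial markers were highest in the same library. Kcna5 in wildtype PA1 of E9.0 read 4.66 CPM in replicate 2, against 3.66 to 3.93 CPM. Kcna6 in wildtype PA2 of E9.5 read 9.28 CPM in replicate 5, against 3.74 to 4.55 CPM. Kcna1 in labelled PA2 of E9.0 read 0.0821 CPM in replicate 2, which is 1 read against 0 in the others.

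The label's effect in PA2 less its effect in PA1 stood out for Kcna5 at E9.5 (-2.09) and E10.0 (-1.68) and for Kcna1 at E10.5 (1.01). These are the values on which the genes were chosen, and no test is given for them.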

How the results depend on the processing

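Over the 26 comparisons of the 3 members, 754 values came from alternatives other than leaving out 1 library, and 700 of them kept their side of the threshold or moved by less than the spread between replicates. Leaving out 1 library gave 750 values, of which 20 lost and 3 gained a call. No called value changed sign in either set, and 8 and 26 values that were not called did.

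A pseudocount of 5 moved Kcna5 to 1.88 and 1.98 (wildtype arch difference, E9.5 and E10.0), 0.64 (labelled arch difference, E10.0), -1.47 (label in PA2, E9.5), -1.60 and -1.33 (label effect in PA2 minus PA1, E9.5 and E10.0), and 1.22 and 0.31 (E9.0 to E9.5 in wildtype and labelled PA2). It ended the wildtype PA1 fall from E9.0 to E10.5 (-0.26, limma adjusted p = 0.12) and brought Kcna6 in labelled PA2 of E10.5 past the threshold (0.55, 0.019). With edgeR, Kcna5 was 2.87 in the wildtype arch difference and -2.05 in the label difference in PA2, both at E9.5.

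Kcna1, with few reads, moved most. At E10.5 its label difference in PA2 was 1.97, 0.29 and 3.26 with a pseudocount of 0.25, a pseudocount of 5 and edgeR, its labelled arch difference 1.70, 0.26 and 2.42, and its label effect in PA2 minus PA1 1.96, 0.30 and 3.46. Its wildtype arch difference at E10.5 was -1.04 with edgeR. At E9.5, in the same order of settings, its wildtype arch difference was 0.93, 0.12 and 1.64, its label effect in PA2 minus PA1 -0.70, -0.09 and -1.30, and its step from E9.0 in wildtype PA2 1.00, 0.12 and 1.68. Its label difference in PA2 at E9.5 was -0.42 with a pseudocount of 0.25 and -0.70 with edgeR. At E9.0 the labelled arch difference passed with a pseudocount of 0.25 (-0.75, limma adjusted p = 0.046) and edgeR (-3.01, 0.021), and the label difference in PA2 with edgeR (-2.79, 0.046).

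With only the compared groups in the limma fit, which leaves fewer samples, calls were lost for Kcna5 in labelled PA2 of E9.0 (-0.87, adjusted p = 0.19), for Kcna6 between labels in PA1 of E9.5 (0.64, 0.088), and for the E9.0 to E9.5 rise of Kcna1 in labelled PA2 (0.46) and of Kcna6 in wildtype and labelled PA2 (0.90 and 1.00). Kcna6 then passed in the labelled arch difference of E10.0 (0.45, 0.022) and between labels in PA2 of E10.5 (0.79, 0.014). The replicate block by embryo, which uses the pairing of the arches, changed 1 call among the members: the Kcna1 arch difference in wildtype embryos at E10.0 passed (0.32, adjusted p = 0.034). The cause of these changes was not tested.

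Leaving out 1 library changed calls within these ranges: Kcna1 arch difference in wildtype at E10.0 0.27 to 0.40; Kcna5 wildtype PA1 E9.0 to E10.5 -0.70 to -0.39. For Kcna6 they were 0.18 to 0.62 (wildtype arch difference, E9.5), 0.05 to 0.69 (label in PA2, E9.0), 0.52 to 0.83 (label in PA1, E9.5), 0.57 to 0.80 and 0.53 to 0.82 (E9.0 to E10.5 in wildtype and labelled PA1), and 0.65 to 1.09 and 0.64 to 1.28 (E9.0 to E9.5 in wildtype and labelled PA2). Leaving out libraries holding yolk sac transcripts was chosen after seeing the data. Without the 3 of E10.0 no member's call changed. Without those of E9.0 too, Kcna6 passed between labels in PA2 of E9.0 (0.69, limma adjusted p = 0.04) and E10.5 (0.79, 0.033). Calls were then lost for Kcna6 in wildtype PA1 between the first and last stage (0.58, 0.064) and in labelled PA2 between the first 2 stages (0.64, 0.088), and for the Kcna5 fall in wildtype PA1 (-0.53, 0.052). Counts of other voltage-gated channel genes past the threshold between arches moved by over 1.5 times with a filter of 5 CPM, which tests fewer genes: 7 to 3 at E9.0 under both labels, 6 to 2 in wildtype and 3 to 1 in labelled embryos at E9.5. With just the compared groups they went from 7 to 4 (E9.0) and 3 to 1 (E9.5) in labelled embryos, with the embryo block from 3 to 5 (labelled, E9.5), and with a pseudocount of 5 from 3 to 1 (labelled, E10.0). In labelled embryos of E10.5, 0 became 1 with a pseudocount of 0.25, with the block and with just the compared groups. Without the yolk sac libraries the 3 in labelled embryos of E10.0 became 0. Kcna1 depth limits every statement on it.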
